A study of Mus musculus with 29 samples.

Results

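Transfer of naive CD4+ T cells into mice without lymphocytes (TCT) was compared with untreated mice whose genotype label reads Rag1-/-, across all genes of the colon. The members were the 6 libraries whose labels give these groups, TCT 1, 3 and 5 and Rag1-/- control 2, 3 and 4, of 29 libraries in the series. The genotype label of both groups is C57BL/6 Rag1-/-, so neither group should make T or B cells of its own, and the controls were untreated. The TCT mice received sorted naive CD4+ cells into the peritoneum and were culled after 6 to 8 weeks per the labels. The treatment protocol in the labels names Rag2-/- recipients instead. For this model the study's methods give culling 4 to 6 weeks after transfer, which differs from the labels. Those methods name 2 cell doses, and the labels of all 3 TCT mice carry the lower dose. Further groups used here were untreated mice labelled Balb/C (wild-type controls, n = 3), untreated mice labelled Balb/C Rag2-/- (Rag2-/- controls, n = 3) and untreated mice labelled Balb/C Tbx21-/- x Rag2-/- that develop colitis spontaneously (TRUC, n = 4). Mice given anti-CD40 antibody (n = 3, genotype label C57BL/6 Rag1-/-), DSS (n = 3), DNBS (n = 3) or an IL10 blocking antibody (n = 4, these 3 groups labelled Balb/C) entered the same model fit. The study's methods give C57Bl/6 spleens as the source of the transferred cells. They list bought wild-type mice as C57Bl/6, where the labels of the wild-type controls read Balb/C. They also describe DSS given to C57Bl6 mice and a model in Il10-/- mice, where the labels read Balb/C and an IL10 blocking antibody. The age of the mice is not in the labels. The labels only number the libraries, and the study describes the samples of a group as biological replicates.

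Naive CD4+ T cells placed in a host without lymphocytes expand on contact with gut bacteria. Because the sorted cells hold few regulatory T cells, many become effector cells of the Th1 and Th17 types, and colitis follows over weeks. Th1 cells make interferon-γ, which acts through IRF1 and other factors on nearly every cell of the mucosa and raises antigen presentation, guanylate-binding proteins and the chemokines that bind CXCR3. In the colon the epithelium answers with antimicrobial proteins and loses part of its absorptive and secretory program.

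Counts per library ran from 10730181 to 11659953 in TCT and from 11108535 to 12418161 in the labelled Rag1-/- controls, within the 10725564 to 14977094 of the series. A count of 0 allows up to 3 counts, which is 0.221 to 0.278 CPM (counts scaled to a common library total by TMM) in these 6 libraries. Intervals and limits of this kind cover counting error only. Colon epithelium was present in all 6 libraries: Vil1, a structural protein of the brush border, was at 897, 944 and 907 CPM in TCT and 733, 733 and 731 CPM in the controls, in the order of the replicate numbers, which is kept throughout. The smooth muscle gene Myh11 was at 1469, 1373 and 1488 CPM in TCT and 1244, 1472 and 1481 CPM in the controls. Y-linked Ddx3y, Kdm5d and Uty had no count and Eif2s3y at most 1 in these libraries. Levels in CPM are not corrected for gene length, and no gene was set against another by them.

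Counts of Rag1 and Rag2 differed between TCT and the labelled Rag1-/- controls, although the genotype labels of these groups are the same. Rag1 (chr2:101638282-101649501, GRCm38, protein coding), the recombinase gene that the label says is disrupted, had 33, 27 and 20 counts in TCT and 0, 4 and 2 counts in the labelled Rag1-/- controls. Rag2, its partner (chr2:101624718-101632529), had 0, 0 and 0 counts in TCT and 16, 6 and 20 counts in the controls. The TCT libraries therefore carried Rag1 transcripts and no Rag2 count, and the controls carried Rag2 transcripts and at most 4 counts of Rag1. Rag2 had 15 to 25 counts in the Rag2-/- controls, 57 to 94 in TRUC and 48 to 99 in the libraries labelled anti-CD40, against at most 1 in any wild-type, DSS, DNBS or IL10 library. Rag2 counts were thus higher in libraries labelled Rag2-/- than in the wild type, so counts of these genes do not show which gene was intact. Whether the counted exons include the deleted parts of either gene is not given in the sources used here.

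Genes known to differ between inbred strains divided the 6 libraries. Of 6 such genes tested, 3 were higher in TCT, 2 were lower and Pla2g2a did not pass. H2-Ea-ps (chr17:34341959-34344645), the E-alpha gene of MHC class II, which is not transcribed in strains of the H2-b haplotype such as C57BL/6, had no count in TCT and 78.5, 74.5 and 67.7 CPM in the labelled Rag1-/- controls, a level at least 265-fold lower in TCT (adjusted p = 2.71e-14). It had at most 1 count in each wild-type library and 69.4 to 110.4 CPM in the Rag2-/- controls. Ifi202b, an interferon-inducible gene with large strain differences, had no count in TCT and was at 1.95, 3.24 and 2.15 CPM in the controls. Nlrp1b (chr11:71153102-71230733), an inflammasome sensor, went the other way, at 16.5, 18 and 21.7 CPM in TCT and 0.405, 0.295 and 0.258 CPM in the controls. In these genes the TCT libraries lay with the wild-type libraries and the labelled Rag1-/- controls with the Rag2-/- controls. The transfer and this difference between the groups cannot be told apart within the comparison as labelled.

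**Figure D1:**
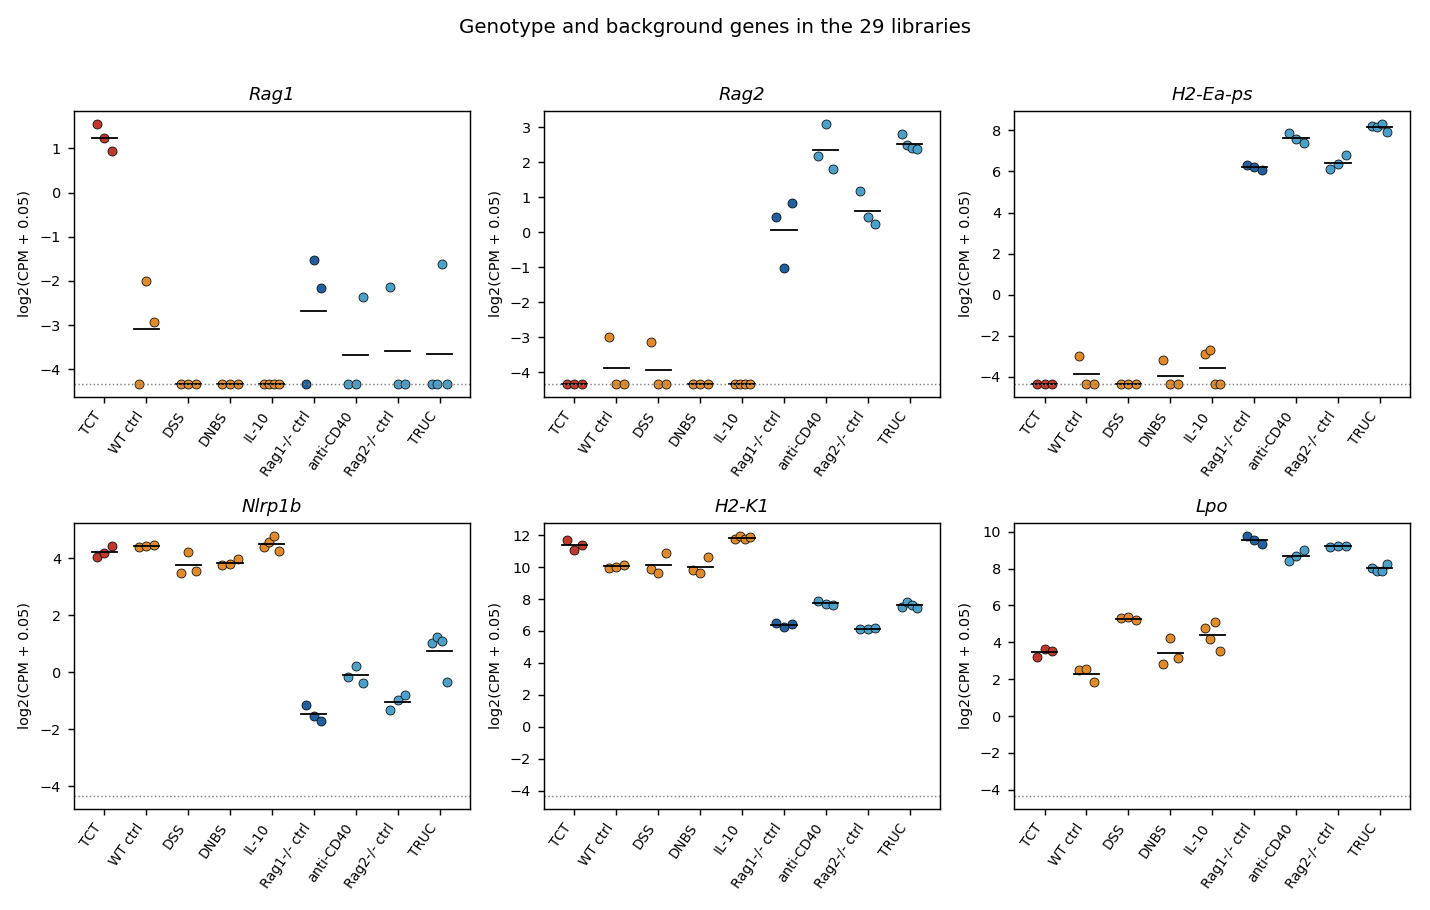
Levels of Rag1, Rag2, H2-Ea-ps, Nlrp1b, H2-K1 and Lpo in all 29 libraries of 9 groups, as log2 of CPM plus 0.05, with 1 point per library, a bar at the group mean and a dotted line at the value of no count. Rag1 stands above the other groups in TCT, and for Rag2, H2-Ea-ps, Nlrp1b and Lpo the TCT libraries sit near the wild-type, DSS, DNBS and IL10 libraries while the labelled Rag1-/- controls sit near the Rag2-/-, TRUC and anti-CD40 libraries.

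Against the labelled Rag1-/- controls, 5601 of 18616 genes tested passed an adjusted p of 0.05 in edgeR's quasi-likelihood test (30.1%), 2991 higher in TCT (16.1%) and 2610 lower (14%). The labelled Rag1-/- controls themselves differed from the Rag2-/- controls in 23 genes (0.124%), 13 higher in the former (0.0698%) and 10 lower (0.0537%), with 2275 genes at an unadjusted p under 0.05. This count depended on the fit, with 418 genes by edgeR on the 2 groups alone and 1008 by DESeq2. The 3 TCT libraries did not overlap with the 3 libraries of labelled Rag1-/- controls in 43.1% of the genes tested, 21.4% with TCT higher and 21.7% with TCT lower. Against the Rag2-/- controls 5950 genes passed in TCT (32%), 3239 higher (17.4%) and 2711 lower (14.6%). Against the wild-type controls 5725 genes passed in TCT (30.8%), 3155 higher (16.9%) and 2570 lower (13.8%). With upper quartile scaling the last split was 2429 higher and 3385 lower. The wild-type controls, also untreated, differed from the Rag2-/- controls in 1510 genes (8.11%), 905 higher in the wild type (4.86%) and 605 lower (3.25%), with 3713 by edgeR on the 2 groups alone and 3440 by DESeq2. This last comparison shares no library with that of TCT and the labelled Rag1-/- controls, and its groups, with no transfer and no colitis, divided in H2-Ea-ps, Ifi202b and Nlrp1b as TCT and those controls did, though not in Pla2g2a. It also sets mice with lymphocytes against mice without. It was added after the values were seen.

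Genes were sorted by these further comparisons, which share the TCT libraries with the main one or the wild-type libraries with each other, so the sorting of the 5601 genes is a description. A first class of 3128 genes (16.8% of all tested) also passed in the same direction against the wild type and not between the untreated groups, 1781 higher and 1347 lower. These are called held below, and without TCT 5 there were 2008. Another 704 genes (3.78%) passed in the same direction between wild-type and Rag2-/- controls and not against the wild type, 379 higher and 325 lower. A further 200 genes passed in all 3 and 1569 only against the labelled Rag1-/- controls. Of the 1510 genes that differed between the untreated groups, 904 passed in the same direction in TCT (59.9% of them, and 16.1% of the 5601), and 52 in the opposite direction (3.4%). In 4 models that share no library with the comparison (TRUC against the Rag2-/- controls, and DSS, DNBS and the IL10 antibody, all against the same wild-type controls), 3388 of the 5601 genes passed in the same direction at least 2 times (60.5%), and 1012 did so in none. Of all genes tested, 40.2% passed in one direction, up or down, in at least 2 of these models. This share takes either direction, whereas the 60.5% takes only the direction seen in TCT, so they are not like measures. Taken singly, 45.8% passed in TRUC (22.4% higher than in its controls, 23.4% lower), 34% in DSS (17.7% and 16.3%), 6.17% in DNBS (3.95% and 2.21%) and 53.3% under the IL10 antibody (27.2% and 26.1%).

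A stricter pattern was counted as well: genes called in TCT for which all 16 libraries of TCT, wild type, DSS, DNBS and IL10 antibody lay on one side of all 13 libraries of the labelled Rag1-/- controls, anti-CD40, Rag2-/- and TRUC. This held for 406 genes (2.18% of those tested), 211 higher in TCT and 195 lower. Pseudogenes made up 31 of the higher and 93 of the lower genes, and protein-coding genes 153 and 90, where 1133 pseudogenes and 15327 protein-coding genes were tested. Among the autosomes and X the share ran from 1.35% on 15 to 3.48% on 17 (31 of 890). Between 33000001 and 37000000 of chromosome 17, which holds the MHC genes, 11 of 172 genes tested divided in this way (6.4%). Further such genes lay on every other autosome and on X, with 3.2% on 19 and 3.09% on 4.

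**Figure D2:**
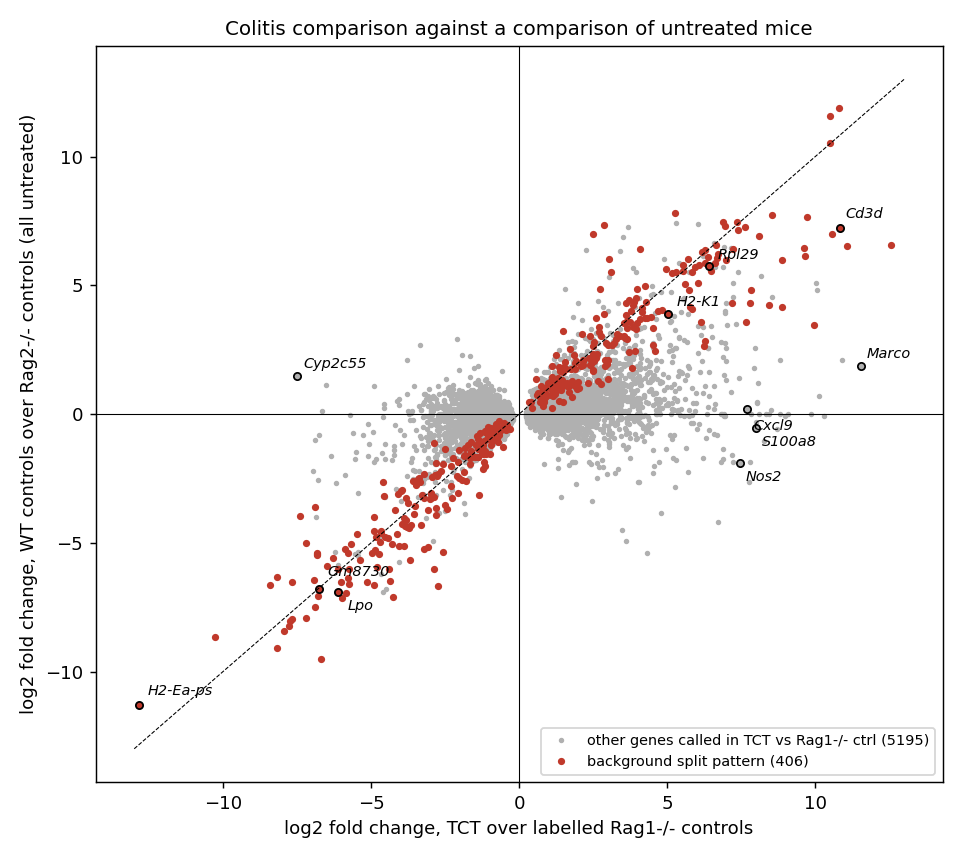
Log2 fold change of TCT over the labelled Rag1-/- controls (x axis) against that of wild-type over Rag2-/- controls, both untreated (y axis), 1 point per gene for the 5601 genes called, with the 406 genes divided by all 29 libraries in red and the others in grey. The red genes lie along the diagonal, which the way they were chosen fixes in part because it used these libraries, and the circled genes named in the text show both kinds.

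The genes that also differed between untreated groups included several of the steepest changes. Lpo (chr11:87806428-87828289), which encodes lactoperoxidase, was at 9.26, 12.4 and 11.5 CPM in TCT and 873, 751 and 656 CPM in the labelled Rag1-/- controls, and at 5.64, 5.79 and 3.53 CPM in the wild type and 588, 610.1 and 591 CPM in the Rag2-/- controls. Its log2 fold change in TCT was -6.10 ± 0.37 (SE, adjusted p = 5.22e-12) and that of wild type over Rag2-/- was -6.89 ± 0.38 (adjusted p = 1.11e-12). Nxpe5 was at 4.63, 4.53 and 3.61 CPM in TCT and 284, 204 and 217 CPM in the controls. Neither gene's TCT values reached those of a single control library. Apob, the apolipoprotein of chylomicrons and very low density lipoprotein, was higher in TCT, at 48.8, 68.9 and 101 CPM against 1.62, 1.11 and 1.38 CPM, and stood at 47.3, 52.3 and 37.3 CPM in the wild type. Against the wild type its log2 fold change was 0.68 ± 0.28 (adjusted p = 0.0726). Trim5, of a family of antiviral factors, had 1 count over the 3 labelled Rag1-/- controls, 13.6, 11.8 and 15.9 CPM in TCT and 7.7, 7.73 and 7.71 CPM in the wild type. Pnp2, a nucleoside phosphorylase, had 3 counts over these controls, 13.2, 11.1 and 7.6 CPM in TCT and 12.3, 15 and 21 CPM in the wild type. In both genes taken alone the TCT and wild-type libraries lay far above the labelled Rag1-/- controls. Of the 50-base windows of their exons, 36.3% in Trim5 and 28.5% in Pnp2 also occur in another gene. The level of either gene alone is therefore uncertain. Summed, Trim5 and Trim12c had means of 68.6 CPM in TCT, 58.9 CPM in these controls and 59.8 CPM in the wild type. Pnp2 and Pnp summed to 31.6, 10.8 and 32.3 CPM in that order, so a gap remained in this pair.

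Ribosomal protein genes and their processed copies moved in opposite directions between the groups. Rps18 was at 489.7, 523 and 561 CPM in TCT and 47.3, 44.3 and 42.3 CPM in the controls, and its near copy Gm11361 at 5.59, 6.58 and 5.65 CPM against 143, 113 and 127 CPM. Summed, this pair gave a mean of 530.4 CPM in TCT and 172 CPM in the controls. Rplp0, a stalk protein of the large subunit, was at 1467, 1525 and 1502 CPM against 633, 547 and 574 CPM, while Gm8730 was at 5.15, 5.73 and 5.93 CPM against 664, 592 and 577 CPM. Summed, Gm8730 and Rplp0 gave a mean of 1504 CPM in TCT and 1196 CPM in the controls, a much smaller gap than either gene alone. Of the 50-base windows of Gm8730's exons 73.7% also occur in another gene, so the level of either gene alone is uncertain. Rpl26 (chr11:68901583-68906989) and the pseudogene Gm15772 (chr5:3236431-3236868), 91.5% of whose windows are shared, also went opposite ways. Rpl26 was at 344, 341 and 367 CPM in TCT and 11.8, 9.28 and 9.29 CPM in the controls, and Gm15772 at 13, 13.3 and 15.1 CPM against 404, 335 and 368 CPM. Their sum was 365 CPM in TCT and 379 CPM in the controls. Here TRUC did not follow the Rag2-/- controls, with Rpl26 at 364 to 442 CPM in TRUC and 13.9, 14.7 and 12.2 CPM in the Rag2-/- controls.

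By the rule for named genes, which orders genes by the fitted log2 fold change, the first rises over the labelled Rag1-/- controls were Apol10a, Marco, Cd5, Ly6i, Cd3d, Gm8979, Gm1966, Trim12a, Gm43305 and Prss22. Where a group has no count this fitted value depends on the prior count, so it gives no order of measured folds. Marco, a scavenger receptor of macrophages (chr1:120474538-120505024), was at 56.9, 15.3 and 17.1 CPM in TCT with no count in any control library, at least 115-fold higher (adjusted p = 2.8e-07). Apol10a, an apolipoprotein L gene, was at 28.2, 51.6 and 104 CPM, again with no control count and at least 237-fold higher (adjusted p = 0.000883). Its TCT libraries spread widely, with TCT 5 highest, and its control libraries all lay at 0. Ly6i, a cell-surface antigen gene of the Ly6 family, was at 29.3, 7.78 and 20.4 CPM (at least 74.2-fold, adjusted p = 0.000965), and Prss22, a serine protease gene, at 17.7, 12.2 and 7.88 CPM (at least 48.8-fold, adjusted p = 0.000288). These 4 genes were held. Against the wild type the log2 fold changes were 7.80 ± 0.87 for Marco and 5.99 ± 1.39 for Apol10a (adjusted p = 3.02e-06 and 0.0037). Gm8979 and Gm43305 were not held. Gm8979 was at 70.7, 64.8 and 62.5 CPM in TCT and 274, 253 and 194 CPM in the wild type, and 85.8% of its windows occur in another gene. Gm43305 was at 45.2, 49.8 and 63.5 CPM in TCT and 41.2, 68.1 and 52.9 CPM in the wild type. Clec4e, the Mincle receptor for bacterial glycolipids, followed among the held genes at 70.2, 25.3 and 28.1 CPM in TCT against 1 count over all control libraries, and Serpina3f, a protease inhibitor, at 18.8, 28.4 and 52 CPM.

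Among the first falls by this order H2-Ea-ps, Gm4858, Gm9625, AK157302, Rps2-ps10 and Gm8730 belong to the pattern that divided all libraries, and Cyp2c55, Klk15, Slc30a10 and Afm do not. Slc30a10, a manganese exporter, was at 0.0873, 0.598 and 0 CPM in TCT, 28.6, 33.2 and 25.7 CPM in the labelled Rag1-/- controls and 9.37, 9.12 and 14.8 CPM in the wild type. The log2 fold change of Slc30a10 was -6.90 ± 1.30 (adjusted p = 0.000262) against the former and -5.51 ± 1.30 (adjusted p = 0.00291) against the latter. The first held falls by the same rule were Cyp2c55, Slc30a10, Hsd3b3, Hao2, Cyp2f2, Klb, Bex4 and Pck1. Hao2, a peroxisomal hydroxyacid oxidase, was at 11.5, 14.5 and 5.75 CPM against 457, 343 and 301 CPM. Pck1, which controls gluconeogenesis, was at 21.4, 11.3 and 5.47 CPM against 225, 223 and 170.3 CPM, and Klb, the β-Klotho co-receptor for FGF hormones, at 1.4, 0.94 and 0.463 CPM against 22.5, 23.4 and 21.4 CPM. In each of these genes every TCT library lay below every library of both control groups.

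T-cell genes rose in TCT, and they did so against either control. Of 27 genes of the T-cell receptor complex and its signalling tested, 26 rose over the labelled Rag1-/- controls and none fell, with a median log2 fold change of 5.28 (4.43 with genes at 0 in the controls set to their lower bound), where the median of all genes was 0.000. Against the wild type, which has its own T cells, 25 rose and the median was 3.16, where that of all genes was -0.006. The shares of all genes to set beside this list and those below were 16.1% higher and 14% lower over the labelled Rag1-/- controls. Over the wild type they were 16.9% and 13.8%. Summed over the list, TCT had 343 to 645 CPM, the labelled Rag1-/- controls 40.0 to 40.3 CPM and the wild type 52.1 to 76.2 CPM. In colon RNA, more T cells and more of a transcript per T cell cannot be told apart, and the same holds for every cell type below.

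Cd3g, a subunit of the CD3 complex (chr9:44969572-44980431), was at 41.3, 29.2 and 24.3 CPM in TCT, 0.162, 0.295 and 0.0861 CPM in the labelled Rag1-/- controls and 1.52, 1.73 and 2.46 CPM in the wild type. Its log2 fold change was 7.34 ± 0.63 (adjusted p = 4.77e-09) and 4.05 ± 0.47 (adjusted p = 3.02e-06) in that order of controls. Trac, the constant region of the receptor's alpha chain, was at 17.9, 11.2 and 9.17 CPM in TCT against 1 count in all control libraries together. Both genes were highest in TCT 1, and neither overlapped between TCT and a control group. Cd4, the coreceptor of the transferred cells, was at 68.9, 51.6 and 38 CPM in TCT, 3.16, 4.49 and 3.79 CPM in the labelled Rag1-/- controls and 5.79, 5.06 and 9.1 CPM in the wild type (3.79 ± 0.42, adjusted p = 2.82e-07, and 2.99 ± 0.40, adjusted p = 1.23e-05). Myeloid and lymphoid tissue inducer cells also carry Cd4, and the controls were not at 0. Cd8a was at 9.69, 12.5 and 6.12 CPM against 0.0811, 0.0737 and 0 CPM, while Cd8b1, the second chain of the coreceptor on conventional CD8+ T cells, was at 0.349, 0.171 and 1.48 CPM and did not pass against the wild type (log2 fold change -0.04 ± 0.68, adjusted p = 0.974). The kinases Lck and Zap70 rose by 3.80 ± 0.40 and 4.43 ± 0.53 on the log2 scale (adjusted p = 1.15e-07 and 8.4e-07), and Lat, the adaptor they phosphorylate, by 6.26 ± 0.43 (adjusted p = 8.48e-11). Cd27 did not pass in either comparison. 7 members of the list, Cd3d, Cd3e, Trac, Cd5, Cd6, Lat and Themis, also divided all 29 libraries as described above, where wild-type libraries carry T cells and Rag2-/- libraries do not.

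Of 4 genes of γδ T cells, 3 rose against each control. Tcrg-C2, a constant region of the γ chain, had 13.4, 11.7 and 6.95 CPM in TCT and no count in any labelled Rag1-/- control, at least 41.3-fold higher (adjusted p = 8.22e-08). Trdc, the constant region of the δ chain, was at 0.175, 0.0855 and 0.0927 CPM, near the limit that a count of 0 allows, and did not pass (adjusted p = 0.385). The γ locus is known to be transcribed in αβ T cells too, and the counts do not separate these sources.

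Genes of regulatory and restrained T cells rose in part. Of 16 tested, 12 rose and Tox fell over the labelled Rag1-/- controls (median 2.36), and 10 rose against the wild type (median 1.59). Foxp3, the defining factor of regulatory T cells, was at 0.437, 1.2 and 0.371 CPM in TCT and 0, 0.442 and 0.258 CPM in the controls and did not pass (log2 fold change 1.46 ± 0.79, adjusted p = 0.169). Il10 did not pass either (adjusted p = 0.169). Ctla4, an inhibitory receptor, was at 3.06, 3.16 and 3.52 CPM against 2 counts over the 3 controls, and Icos, a costimulatory receptor, at 16.4, 7.78 and 7.14 CPM against 0.486, 0.81 and 0.344 CPM. Tnfrsf9, the costimulatory receptor 4-1BB, and Pdcd1, the inhibitory receptor PD-1, rose by 4.09 ± 0.76 and 3.23 ± 0.69 (adjusted p = 0.000237 and 0.00097).

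The Th1 program rose with the T-cell genes. Of 19 genes tested, 15 rose and none fell over the labelled Rag1-/- controls (median 3.83), and 14 rose against the wild type (median 3.5). Ifng (chr10:118441046-118445892), which encodes interferon-γ, was at 3.93, 4.36 and 6.95 CPM in TCT, had no count in any labelled Rag1-/- control and 1 count over the wild-type libraries. It was at least 19.7-fold higher in TCT than in the former, with an adjusted p of 0.011 in edgeR's quasi-likelihood test, and 0.0136 against the latter. Tbx21, the factor T-bet that directs Th1 differentiation, was at 5.5, 4.53 and 2.87 CPM against 0.324, 0.221 and 0.344 CPM. Cxcr3, the receptor that draws Th1 cells to inflamed tissue, was at 18.4, 11.3 and 9.82 CPM against 0.405, 0.295 and 0.258 CPM, and Il18r1 at 55.1, 20.8 and 17.5 CPM against 1.78, 1.84 and 1.46 CPM. Cxcr3, Il18r1 and Tbx21 were highest in TCT 1, and Ifng in TCT 5.

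The chemokines that bind CXCR3 were among the steepest of the list. Cxcl9 (chr5:92321347-92328079) was at 101, 96 and 224 CPM in TCT, 0.567, 0.81 and 0.602 CPM in the labelled Rag1-/- controls and 0.838, 0.666 and 0.41 CPM in the wild type. Its log2 fold change was 7.70 ± 1.43 (adjusted p = 0.000226) against the former and 7.75 ± 1.43 (adjusted p = 0.000352) against the latter. Cxcl10 was at 40.4, 37.1 and 79.3 CPM in TCT, 0.892, 1.62 and 0.344 CPM in the labelled Rag1-/- controls and 0.686, 0.932 and 0.738 CPM in the wild type. TCT 5 was highest for both chemokines and every TCT library lay above every control library. Irf1, a transcription factor and an early target of interferon-γ, rose by 1.47 ± 0.40 (adjusted p = 0.00726). Il12b, the p40 chain shared by IL-12 and IL-23, was at 2.36, 0.769 and 2.32 CPM against 1 count over the labelled Rag1-/- controls (adjusted p = 0.00827), and Il12a, the p35 chain, was at 0.262, 0.427 and 0.463 CPM and did not pass (adjusted p = 0.845).

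The promoters of interferon targets that moved here are shown because 2 kinds of response element can be read in them. One is the gamma-activated sequence, searched as TTCNNNGAA, which reads the same on both strands. IRF factors bind the other, the interferon-stimulated response element, searched as GAAANNGAAA on both strands. Over 32851 RefSeq promoters of GRCm38.p6, each 300 bases long from 250 before to 50 after the annotated start, 8.3% held the first motif, 3.44% the second and 11.3% either, and the motifs may overlap. Each sequence runs 5′ to 3′ on the gene's own strand, and capitals mark the matches.
Cxcl10: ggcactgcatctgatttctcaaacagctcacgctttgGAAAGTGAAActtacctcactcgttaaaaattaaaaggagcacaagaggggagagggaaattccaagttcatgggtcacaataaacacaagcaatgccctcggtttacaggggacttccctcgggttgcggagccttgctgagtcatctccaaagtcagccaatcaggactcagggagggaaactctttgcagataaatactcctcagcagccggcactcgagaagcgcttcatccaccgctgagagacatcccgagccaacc
Irf1: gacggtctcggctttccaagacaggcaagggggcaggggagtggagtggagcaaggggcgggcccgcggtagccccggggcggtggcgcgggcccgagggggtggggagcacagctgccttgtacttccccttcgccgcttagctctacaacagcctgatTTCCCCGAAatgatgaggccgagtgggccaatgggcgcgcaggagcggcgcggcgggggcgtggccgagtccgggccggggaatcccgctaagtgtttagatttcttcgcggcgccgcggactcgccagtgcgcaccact
Gbp2: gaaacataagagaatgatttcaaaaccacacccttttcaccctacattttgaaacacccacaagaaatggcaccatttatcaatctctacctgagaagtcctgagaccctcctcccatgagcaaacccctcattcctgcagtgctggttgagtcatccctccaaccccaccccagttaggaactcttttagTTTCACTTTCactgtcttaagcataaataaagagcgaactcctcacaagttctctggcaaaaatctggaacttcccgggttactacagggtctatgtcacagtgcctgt
Gbp5: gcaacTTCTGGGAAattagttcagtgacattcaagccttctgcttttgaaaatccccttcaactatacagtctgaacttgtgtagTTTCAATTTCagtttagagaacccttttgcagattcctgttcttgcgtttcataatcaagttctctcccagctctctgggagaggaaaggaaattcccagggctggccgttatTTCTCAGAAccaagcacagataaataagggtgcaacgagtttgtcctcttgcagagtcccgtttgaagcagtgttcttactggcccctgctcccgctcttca
Igtp: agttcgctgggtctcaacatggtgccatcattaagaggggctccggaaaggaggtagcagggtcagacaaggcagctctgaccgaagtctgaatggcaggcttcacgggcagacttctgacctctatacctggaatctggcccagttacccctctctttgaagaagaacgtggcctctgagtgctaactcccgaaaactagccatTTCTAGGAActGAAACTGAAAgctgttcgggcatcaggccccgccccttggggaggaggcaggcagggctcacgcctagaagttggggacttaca
These are chr5:92348840-92349139 on the minus strand for Cxcl10 and, on the plus strand, chr11:53769764-53770063 for Irf1, chr3:142620413-142620712 for Gbp2, chr3:142496684-142496983 for Gbp5 and chr11:58199306-58199605 for Igtp. In Cxcl10 the capitals are a response element that begins at -213 from the start, and in Irf1 a gamma-activated sequence at -90. Gbp2 holds the response element at -59, written there as its reverse complement. Gbp5 holds gamma-activated sequences at -245 and -52 and a response element at -165, and Igtp a gamma-activated sequence at -45 followed by a response element at -34. A match of letters is a description and not a site of binding.

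The interferon-inducible GTPases, which attack the membranes around intracellular microbes, rose almost as a whole. Of 20 tested, 19 rose over the labelled Rag1-/- controls (median 3.87) and 20 over the wild type (median 4.41). Of the 12 with a promoter in RefSeq's table, 11 held the response element and 7 the gamma-activated sequence, against 0 and 2 of 15 for the T-cell receptor list and 1 and 2 of 19 for the list of absorptive epithelium below. In other lists of interferon targets these counts were 6 and 3 of 17 for the interferon effectors below, 4 and 2 of 13 for MHC class I, 1 and 1 of 10 for MHC class II and 1 and 3 of 14 for the Th1 list. Gbp2, a guanylate-binding protein, was at 486, 297 and 977 CPM in TCT, 34, 23.5 and 73.4 CPM in the labelled Rag1-/- controls and 35.4, 31.9 and 32.6 CPM in the wild type (3.75 ± 0.91, adjusted p = 0.00299, and 4.14 ± 0.93, adjusted p = 0.00196). Igtp, which encodes Irgm3, was at 228, 146 and 449 CPM against 13.1, 13.1 and 10.7 CPM, and Iigp1, which encodes Irga6, at 300.4, 287 and 790.3 CPM against 4.95, 7.15 and 6.45 CPM. TCT 5 was the highest library in each. The gene that did not pass over the labelled Rag1-/- controls was Gbp2b, at 9.17, 11.4 and 47.4 CPM in TCT, 45.6, 34.3 and 104 CPM in these controls and 1.07, 1.33 and 0.738 CPM in the wild type. Wild type over Rag2-/- gave -6.41 ± 1.28 (adjusted p = 0.00142), and in TCT the gene rose over the wild type (4.40 ± 1.25, adjusted p = 0.0102). Tgtp1 and Tgtp2, and Gbp6 and Gbp10, share over 70% of their 50-base windows with another gene, and the level of each alone is uncertain.

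Other genes of the interferon response separated by control. Of 25 tested, 18 rose over the labelled Rag1-/- controls (median 2.17) and 23 over the wild type (median 2.94). Ido1, which breaks down tryptophan, was at 132, 58.6 and 355 CPM in TCT, 0.73, 0.516 and 0.861 CPM in the labelled Rag1-/- controls and 0.686, 0.799 and 0.984 CPM in the wild type (8.01 ± 1.95, adjusted p = 0.0029). Nos2, the inducible nitric oxide synthase, was at 471, 149 and 409 CPM, 1.05, 1.84 and 2.93 CPM and 0.305, 0.266 and 0.656 CPM in that order (7.47 ± 1.08, adjusted p = 1.24e-05). Both genes stood above every control library, with TCT 3 the lowest of the TCT libraries. Acod1, which makes itaconate, Ubd, a ubiquitin-like modifier, and Serpina3g, a protease inhibitor, rose by 6.10 ± 1.24, 5.81 ± 1.00 and 5.22 ± 0.82 (adjusted p = 0.000549, 9.58e-05 and 3.17e-05). Cd274, which encodes the checkpoint ligand PD-L1, was at 121, 42.8 and 123 CPM against 7.7, 10.3 and 8.43 CPM (adjusted p = 0.00623). Isg15, Ifit1, Mx1, Oas1a and Slfn4, best known as targets of type I and III interferons, did not pass over the labelled Rag1-/- controls, with adjusted p from 0.18 for Ifit1 to 0.782 for Mx1, and passed over the wild type. Isg15 was at 50.6, 18.3 and 62.5 CPM in TCT, 24.3, 13.9 and 18.1 CPM in the labelled Rag1-/- controls and 2.82, 2.4 and 2.21 CPM in the wild type, so the groups overlapped in the first comparison alone. Wild type over Rag2-/- gave -2.47 ± 0.88 for Isg15 (adjusted p = 0.0911), which did not pass.

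**Figure D3:**
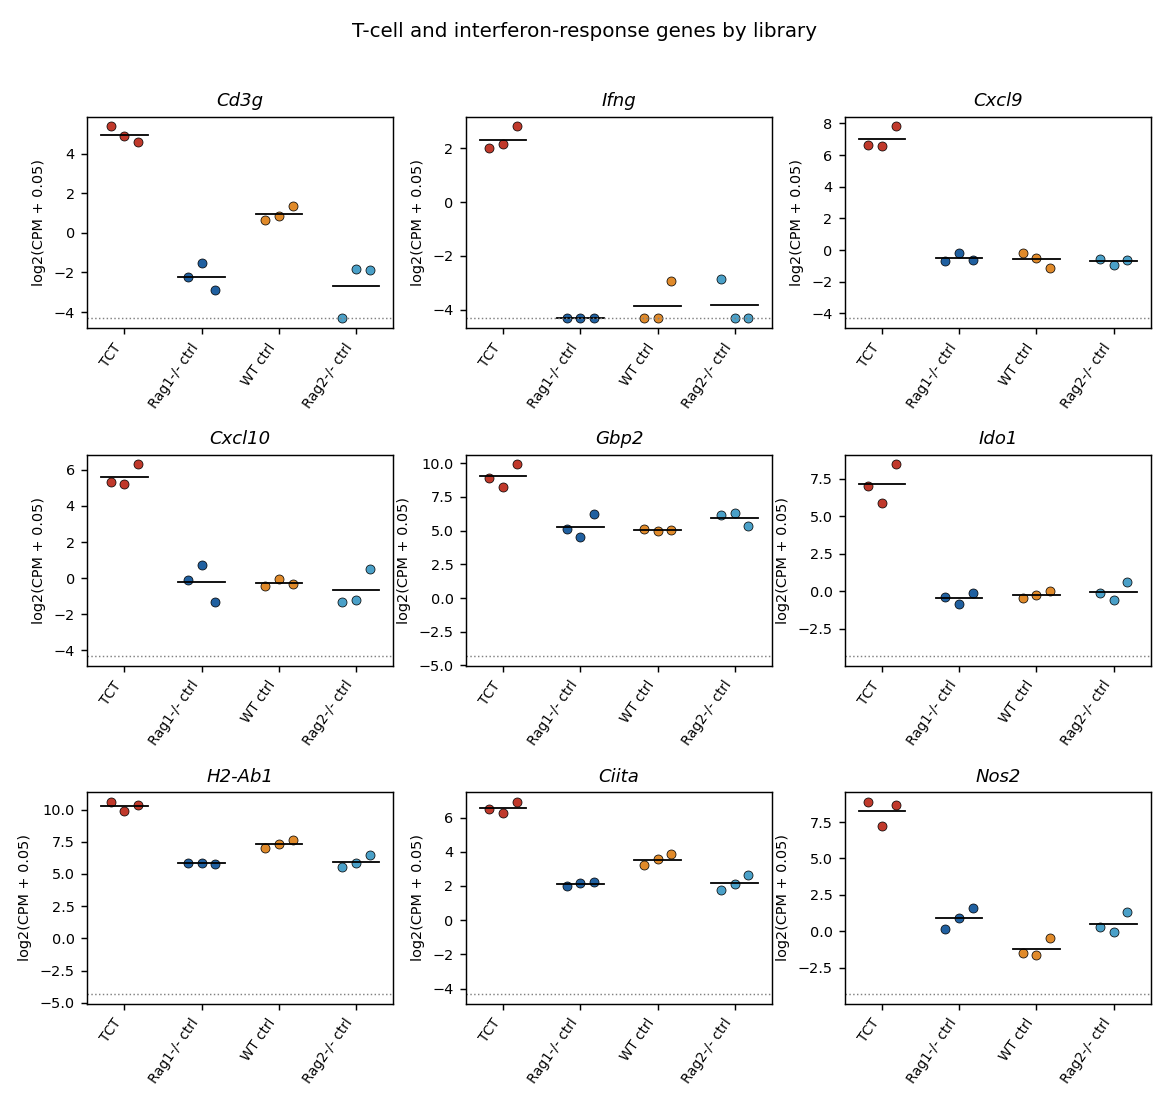
Levels of Cd3g, Ifng, Cxcl9, Cxcl10, Gbp2, Ido1, H2-Ab1, Ciita and Nos2, as log2 of CPM plus 0.05, in the 3 TCT libraries, the 3 labelled Rag1-/- controls, the 3 wild-type and the 3 Rag2-/- controls, 1 point per library with a bar at the mean and a dotted line at no count. All 9 genes are higher in every TCT library than in every library of the 3 control groups, and Ifng lies at or near the line of no count in the controls.

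Antigen presentation rose in both classes. Of 13 genes of MHC class II, 10 rose over the labelled Rag1-/- controls (median 3.86), and 7 rose and 1 fell against the wild type (median 2.53). H2-Ab1 (chr17:34257689-34269419), a class II beta chain, was at 1537, 957 and 1324 CPM in TCT, 58, 58 and 54.4 CPM in the labelled Rag1-/- controls, 127, 162 and 196 CPM in the wild type and 47.5, 56.4 and 87.6 CPM in the Rag2-/- controls. The log2 fold change was 4.49 ± 0.39 (adjusted p = 7.85e-09) over the first control group and 2.98 ± 0.37 (adjusted p = 5.41e-06) over the wild type. Ciita, the master activator of class II transcription, was at 91.3, 75.3 and 120.2 CPM in TCT, 3.89, 4.49 and 4.73 CPM in the labelled Rag1-/- controls and 9.22, 11.7 and 14.4 CPM in the wild type. H2-Ob, the beta chain of a class II chaperone of B cells, was at 5.59, 1.45 and 2.04 CPM in TCT and 14.3, 18.2 and 23.5 CPM in the wild type, a log2 fold change of -2.62 ± 0.60 (adjusted p = 0.0022), and did not pass over the labelled Rag1-/- controls (adjusted p = 0.216).

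All 15 genes of MHC class I and its peptide supply rose against both controls, with medians of 1.75 and 1.59. H2-K1 (chr17:33996017-34000347), a classical heavy chain, was at 3319, 2167 and 2719.6 CPM in TCT, 88.8, 74.9 and 87.4 CPM in the labelled Rag1-/- controls and 995, 1027 and 1146 CPM in the wild type. Its log2 fold change was 5.03 ± 0.29 against the former and 1.37 ± 0.25 against the latter (adjusted p = 1.91e-12 and 0.00027), and wild type over Rag2-/- gave 3.91 ± 0.27 (adjusted p = 1.04e-10). A large difference in H2-K1 was thus also present between the untreated groups. The nonclassical gene H2-Q7 was at 359.7, 229.9 and 333 CPM, 0.324, 0.442 and 0.344 CPM and 13.8, 14 and 19.6 CPM in the same order. B2m, the light chain of all class I molecules, was at 1638, 1117 and 1488 CPM, 412, 332 and 365 CPM and 314, 307 and 335 CPM in that order and gave 1.94 ± 0.36 and 2.15 ± 0.36 (adjusted p = 0.00022 and 0.000149). Nlrc5, the activator of class I transcription, rose by 5.40 ± 0.81 and 4.77 ± 0.77 (adjusted p = 1.86e-05 and 0.000102). Class I genes differ in sequence between haplotypes, and the part of read mapping in these levels was not tested.

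Cytotoxic genes rose as well. Of 15 tested, 12 rose against each control, with medians of 4.08 and 4.03. Gzma, a granzyme of killer lymphocytes, was at 19, 43.9 and 22 CPM in TCT. Gzmb, another, was at 12.2, 27.4 and 21.8 CPM, and no library of either control group exceeded 0.410 CPM for either gene. Gzma rose by 6.68 ± 0.98 and Gzmb by 6.91 ± 0.86 over the labelled Rag1-/- controls (adjusted p = 1.38e-05 and 1.53e-06). Gzmk had no count in any of the 6 control libraries of the 2 groups and 6.64, 2.82 and 4.08 CPM in TCT, at least 17.5-fold higher than in the labelled Rag1-/- controls (adjusted p = 3.52e-06). TCT 3 was highest for Gzma and Gzmb, and TCT 1 for Gzmk. Ncr1, the NKp46 receptor of natural killer cells and innate lymphoid cells, did not pass, at 0.611, 0.427 and 0.649 CPM against 1.3, 1.18 and 0.861 CPM (adjusted p = 0.31).

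Receptors and ligands of gut homing rose in 18 of 21 genes tested over the labelled Rag1-/- controls (median 2.9) and in 16 over the wild type (median 2.12). Itgb7, a chain of the gut-homing integrin, was at 70.8, 46.6 and 45.5 CPM in TCT against 4.62, 3.83 and 3.7 CPM in the labelled Rag1-/- controls, and its partner Itga4 at 35, 26.3 and 27.9 CPM against 4.22, 9.14 and 6.8 CPM. Madcam1, their ligand on mucosal vessels, was at 12.8, 7.69 and 7.14 CPM against 2.03, 2.21 and 2.41 CPM (2.05 ± 0.35, adjusted p = 9.76e-05). Cxcr6, a receptor of tissue-resident T cells, was at 32.6, 26.2 and 21.8 CPM against 1.78, 1.33 and 1.55 CPM, and its ligand Cxcl16 at 66.5, 42.7 and 45.5 CPM against 11.5, 10.0 and 11.4 CPM. Ccl25 did not pass (adjusted p = 0.996).

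Of 16 genes of the TNF family, 12 rose against each control (medians 2.04 and 1.4). Tnf was at 43.7, 16.9 and 40.7 CPM in TCT, 0.324, 2.36 and 1.03 CPM in the labelled Rag1-/- controls and 1.75, 0.733 and 1.31 CPM in the wild type (4.73 ± 0.87, adjusted p = 0.000213). Ltb, the membrane anchor of lymphotoxin, rose by 3.38 ± 0.43 and 1.46 ± 0.39 (adjusted p = 2.16e-06 and 0.00632) against the 2 controls. The receptor gene Tnfrsf1b was at 218, 145 and 194 CPM against 27.1, 34.3 and 38 CPM. Tnfsf15, which encodes TL1A, did not pass in either comparison.

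Few genes of the IL-17 and IL-22 axis passed, beside 30.1% of all genes over the labelled Rag1-/- controls and 30.8% over the wild type. Of 16 tested, Il1b rose and 1 gene fell over the labelled Rag1-/- controls (median 0.69, or 0.66 with lower bounds), and 2 rose and 2 fell against the wild type (median 0.44). Il17a was at 0.524, 0.171 and 0.741 CPM in TCT and Il22 at 0.611, 0.427 and 1.3 CPM, with no count of either in the 6 libraries of both control groups. Of the 50-base windows of Il22 41% also occur in another gene, Iltifb, so its level is uncertain. Neither passed (adjusted p = 0.139 and 0.114), and at this depth they were at least 1.85-fold and 3.02-fold higher than in the labelled Rag1-/- controls. Some of these levels lay near the 0.221 to 0.278 CPM that a count of 0 allows. Not passing therefore does not show that either gene was unchanged. Il1b was at 38.2, 44.1 and 45.1 CPM against 1.3, 1.4 and 1.2 CPM (5.01 ± 0.99, adjusted p = 0.000427). Of the type 2 list 5 of 10 genes rose over the labelled Rag1-/- controls (median 1.1), and 3 rose and none fell against the wild type (median 0.38). Over the labelled Rag1-/- controls Il33 fell, at 3.41, 4.44 and 8.25 CPM against 10.9, 21 and 17.8 CPM (adjusted p = 0.0196). Il4 did not pass (adjusted p = 0.818), and Gata3 was at 3.93, 3.68 and 3.15 CPM against 0.243, 0.368 and 0.516 CPM (adjusted p = 0.00448).

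Neutrophil genes rose in 13 of 17 tested against each control (medians 5.48, or 4.39 with lower bounds, and 5.16, or 4.93 with bounds). S100a8, a subunit of calprotectin, was at 40.5, 45.6 and 107 CPM in TCT, 0.324, 0.147 and 0.258 CPM in the labelled Rag1-/- controls and 0.305, 0.133 and 0.164 CPM in the wild type (8.00 ± 1.11, adjusted p = 6.71e-06). Cxcr2, the receptor by which neutrophils follow CXC chemokines, had 7.34, 8.21 and 12.6 CPM in TCT and no count in either control group (at least 36.3-fold, adjusted p = 0.000179). S100a8 was highest in TCT 5 and all TCT libraries lay far above the controls. Ly6g, a neutrophil surface marker, was at 477, 202 and 242 CPM in TCT and already at 151, 193 and 292 CPM in the controls, and did not pass (adjusted p = 0.44). The granule gene Ngp was at 0.611, 0.513 and 0.556 CPM in TCT and did not pass (adjusted p = 0.139).

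Macrophage genes rose in 20 of 24 tested over the labelled Rag1-/- controls (median 2.54) and in 17 over the wild type (median 1.69), with Mertk lower in both. C1qb, a chain of complement C1q made by tissue macrophages, was at 274, 165 and 199 CPM in TCT, 22.2, 29.1 and 20.3 CPM in the labelled Rag1-/- controls, 60.7, 72.7 and 56.4 CPM in the wild type and 23.7, 30.4 and 41.2 CPM in the Rag2-/- controls. In log2 fold change it gave 3.15 ± 0.23 and 1.75 ± 0.22 (adjusted p = 3.12e-10 and 6.5e-06) against the first 2 controls. Ccl8, a monocyte chemokine, was at 34, 29.4 and 66.5 CPM against 0.973, 1.33 and 1.12 CPM. Mrc1 and Cd163, receptors of resident macrophages, rose over the labelled Rag1-/- controls and did not pass against the wild type: Cd163 was at 8.56, 11.6 and 12.4 CPM in TCT, 1.95, 5.16 and 3.79 CPM in the first and 21, 25.8 and 18.6 CPM in the second (-1.01 ± 0.43, adjusted p = 0.0761).

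B-cell and plasma-cell genes stayed near 0 in both groups. Cd79a, Pax5, Jchain and Mzb1 had at most 0.295 CPM in any of the 6 libraries. Of 19 genes Cd79b and Cxcl13 rose over the labelled Rag1-/- controls (median 1.01, or 0.91 with lower bounds). Against the wild type 17 of 19 fell (median -6.72, or -6.27 with bounds), among them Igha, the IgA heavy chain, at 0.611, 0.342 and 1.3 CPM in TCT against 228, 339.7 and 810.4 CPM (-9.26 ± 0.57, adjusted p = 3.14e-10). Cxcl13, a chemokine that draws B cells, was at 61.2, 51.5 and 40.4 CPM in TCT, 9.08, 11.4 and 7.32 CPM in the labelled Rag1-/- controls and 9.98, 11.3 and 13 CPM in the wild type (2.46 ± 0.41 and 2.16 ± 0.40, adjusted p = 6.84e-05 and 0.000397).

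**Figure D4:**
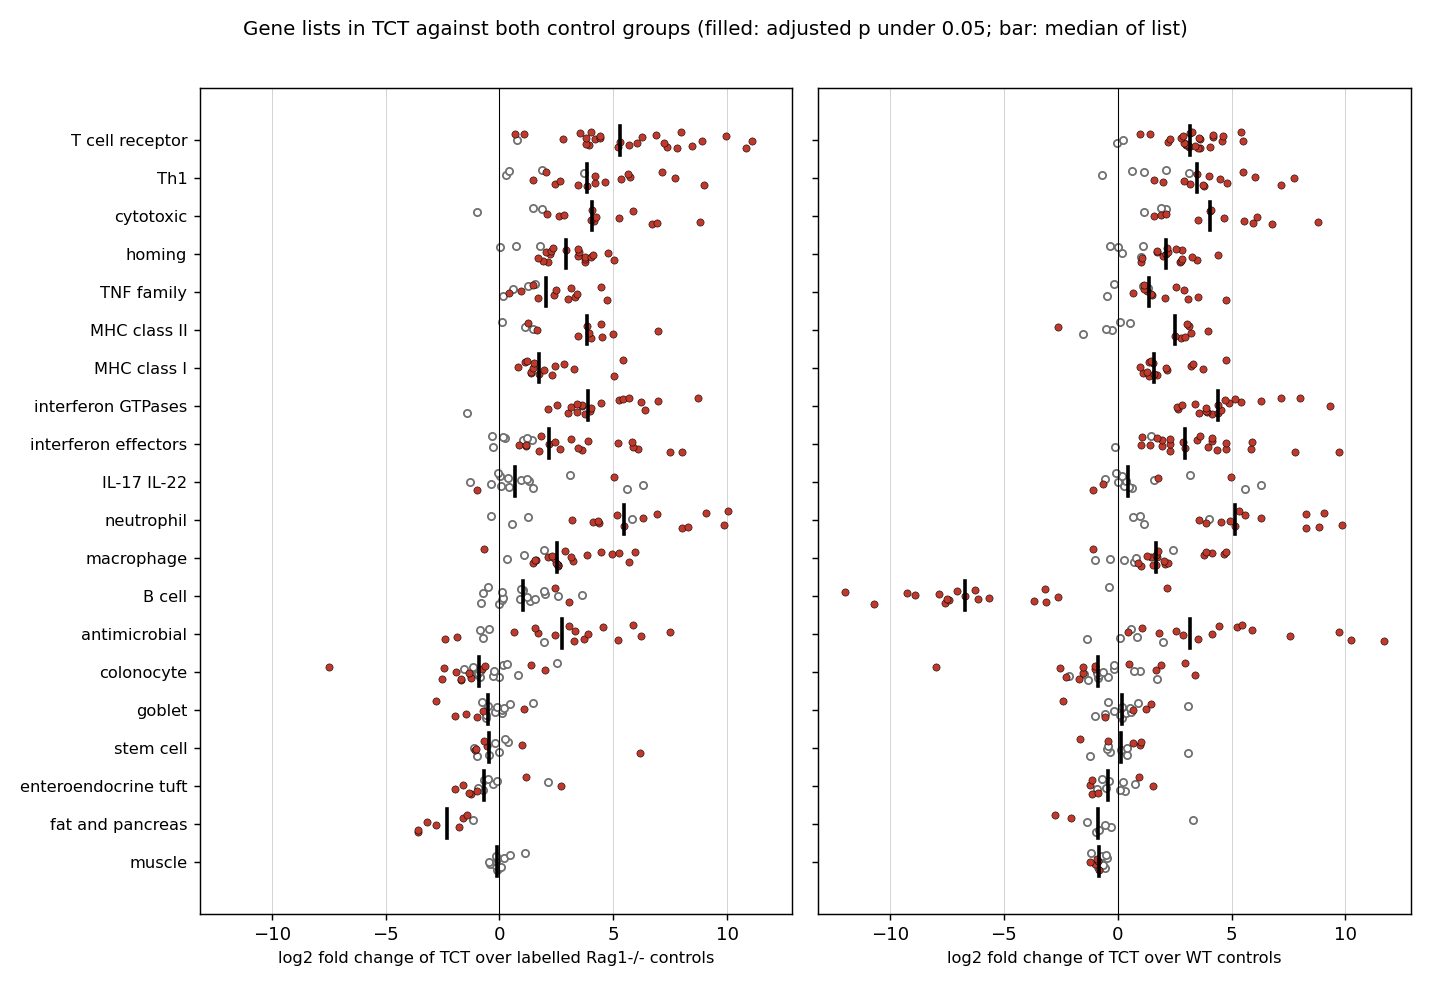
Log2 fold change of each gene of 20 lists in TCT, over the labelled Rag1-/- controls and over the wild-type controls, 1 point per gene, filled where the adjusted p was under 0.05, with a bar at each list's median. T-cell, Th1, cytotoxic, interferon and neutrophil lists lie above 0 against both controls. The B-cell list has a median of 1.01 against the first, with 2 of 19 genes passing, and of -6.72 against the second.

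Genes of the absorptive epithelium fell in part. Of 26 genes of colonocytes tested, 2 rose and 10 fell over the labelled Rag1-/- controls (median -0.89), and 5 rose and 8 fell against the wild type (median -0.85). 2 rose and 6 fell in both. Among all genes 14% fell over the labelled Rag1-/- controls and 13.8% against the wild type. Cyp2c55 (chr19:39007019-39042693), a cytochrome P450 of the colon, was at 3.14, 1.8 and 0 CPM in TCT, 302, 396 and 205 CPM in the labelled Rag1-/- controls and 394, 379 and 494 CPM in the wild type. Against these controls its log2 fold change was -7.49 ± 1.07 (adjusted p = 1.04e-05) and -7.98 ± 1.09 (adjusted p = 1.7e-05), and TCT 5 had no count of it. Abcb1a, the drug exporter P-glycoprotein, was at 109.9, 130.2 and 67.3 CPM, 523, 633 and 533 CPM and 563, 599 and 615 CPM in that order (-2.46 ± 0.40, adjusted p = 4.58e-05). Slc26a2, a sulfate transporter, and Slc16a1, a carrier of short-chain fatty acids, fell with log2 fold changes of -1.71 ± 0.45 and -0.63 ± 0.15 (adjusted p = 0.00569 and 0.00228), and again against the wild type (-1.71 ± 0.45 and -0.99 ± 0.15, adjusted p = 0.00651 and 5.04e-05). The chloride exchanger Slc26a3 was at 456, 325 and 249 CPM in TCT, 985, 991 and 1362 CPM in the labelled Rag1-/- controls and 788, 725 and 1017 CPM in the wild type, and passed against the labelled Rag1-/- controls only (adjusted p = 0.0308 and 0.0918). Krt20, a keratin of mature surface cells, was at 1399, 1689.9 and 1616 CPM against 540.3, 559 and 687 CPM (1.40 ± 0.30, adjusted p = 0.000838). Vil1 did not pass, at 0.32 ± 0.14 (adjusted p = 0.0936). The water channel Aqp4 passed only against the wild type, at 285, 526 and 519 CPM in TCT, 256, 264 and 231 CPM in the labelled Rag1-/- controls and 37.3, 44.5 and 45.8 CPM in the wild type (0.83 ± 0.52, adjusted p = 0.241, and 3.38 ± 0.57, adjusted p = 0.000144).

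Goblet-cell genes passed about as often as all genes. Of 17 tested, 1 rose and 5 fell over the labelled Rag1-/- controls (median -0.5), and 3 rose and 2 fell against the wild type (median 0.21), where 30.1% and 30.8% of all genes passed. Klk1, a kallikrein of goblet cells, was at 143, 117 and 130.4 CPM in TCT, 972, 811 and 913 CPM in the labelled Rag1-/- controls and 688, 616 and 769 CPM in the wild type, and fell in both comparisons (-2.79 ± 0.27 and -2.41 ± 0.26, adjusted p = 3.85e-08 and 1.6e-06). Tff3, the trefoil peptide, fell in both as well, with -0.97 ± 0.19 and -0.54 ± 0.19 (adjusted p = 0.000495 and 0.0369). Clca1, a protease of the mucus layer, was at 2014, 477 and 999 CPM in TCT, 5277, 3871 and 4407 CPM in the labelled Rag1-/- controls and 2387, 2014 and 2553 CPM in the wild type, and passed in the first comparison only (-1.96 ± 0.47, adjusted p = 0.00288, and -0.99 ± 0.46, adjusted p = 0.105). Zg16, a lectin that binds bacteria in mucus, went the same way, at 1034, 509.9 and 468 CPM against 2075, 1626 and 1881 CPM and, in the wild type, 1009.9, 899 and 1014 CPM, with wild type over Rag2-/- at -0.99 ± 0.29 (adjusted p = 0.0324). Muc2, the main mucin, did not pass in either (adjusted p = 0.0839 and 0.573).

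Antimicrobial genes rose in 14 of 20 tested and fell in 2 over the labelled Rag1-/- controls (median 2.74), and rose in 15 against the wild type (median 3.2). Reg3g, a lectin that kills Gram-positive bacteria, was at 175, 80.2 and 144 CPM in TCT, 2.11, 0.295 and 8.69 CPM in the labelled Rag1-/- controls and 0, 0.266 and 0 CPM in the wild type (5.19 ± 1.21, adjusted p = 0.00207). Reg3b was at 182, 74.7 and 84.4 CPM against 7.05, 0.368 and 28.7 CPM, with widely spread controls. Lrg1 was at 85.9, 152 and 229.5 CPM against 2.51, 2.58 and 3.01 CPM (5.85 ± 0.61, adjusted p = 1.23e-07), and Slpi, a protease inhibitor of mucosal surfaces, at 103, 128 and 97.7 CPM against 3.65, 4.42 and 6.02 CPM. Duox2 and its maturation factor Duoxa2, which make hydrogen peroxide, rose by 2.44 ± 0.32 and 3.89 ± 0.42 (adjusted p = 2.56e-06 and 1.97e-07). Lyz1, lysozyme of Paneth cells, was at 118, 54.9 and 62.4 CPM against 6.81, 8.55 and 8.00 CPM (3.33 ± 0.56, adjusted p = 6.92e-05). Of the 50-base windows of Lyz1 16.1% also occur in Lyz2, so the level of Lyz1 is uncertain. Lyz2 was at a mean of 1201 CPM in TCT and 229 CPM in the labelled Rag1-/- controls. Reg4, at 111, 147 and 89.3 CPM in TCT, 789, 563 and 479 CPM in the labelled Rag1-/- controls and 307, 286 and 295 CPM in the wild type, fell in the first comparison (-2.40 ± 0.62, adjusted p = 0.00466) and did not pass in the second (-1.35 ± 0.60, adjusted p = 0.0879). Pla2g2a, a secreted phospholipase with a known null allele in C57BL/6, was at 23, 67 and 57 CPM in TCT, 92.1, 113 and 63.4 CPM in the labelled Rag1-/- controls and 0.762, 0.799 and 0.902 CPM in the wild type. It was at 36.8 to 86.2 CPM in DSS, 1.67 to 21.9 CPM in DNBS and 80.8 to 109 CPM under the IL10 antibody, so among the groups that divided with the wild type in the genes above it was lowest in the untreated one.

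**Figure D5:**
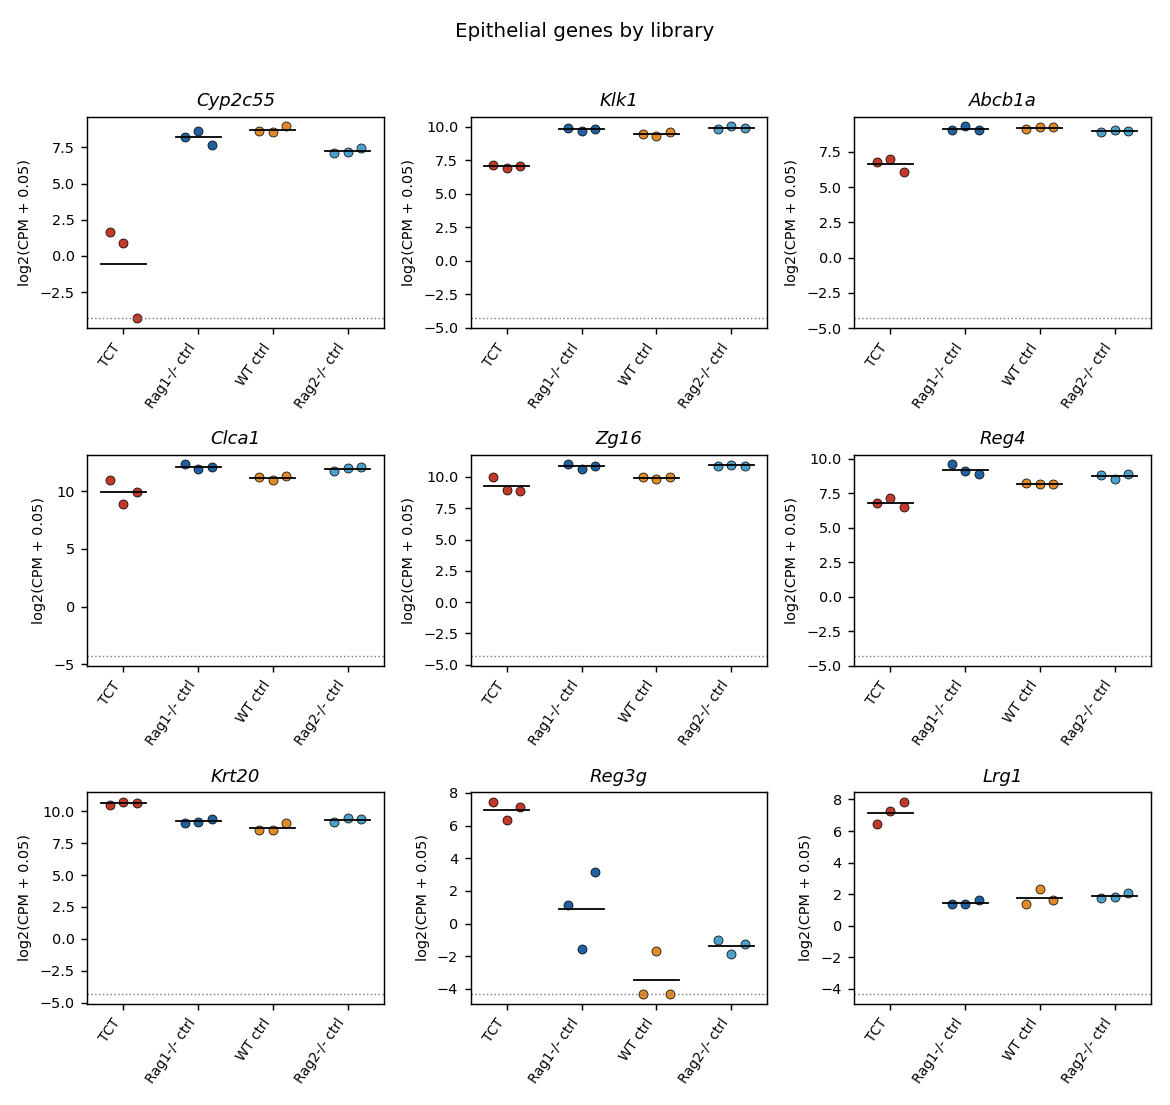
Levels of Cyp2c55, Klk1, Abcb1a, Clca1, Zg16, Reg4, Krt20, Reg3g and Lrg1, as log2 of CPM plus 0.05, in the 3 libraries each of TCT, labelled Rag1-/- controls, wild-type and Rag2-/- controls, 1 point per library with a bar at the mean and a dotted line at no count. Cyp2c55, Klk1 and Abcb1a are lower and Krt20, Reg3g and Lrg1 higher in every TCT library than in every control library, while for Clca1 and Zg16 the TCT and wild-type libraries overlap.

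Of 13 stem-cell genes, 2 rose and 4 fell over the labelled Rag1-/- controls, and 3 rose and 2 fell against the wild type, beside 30.1% and 30.8% of all genes. Axin2, a target of Wnt signalling, was at 31.7, 25 and 22 CPM in TCT, 58.8, 52.5 and 54.6 CPM in the labelled Rag1-/- controls and 21.9, 21 and 28.2 CPM in the wild type, so its fall in the first comparison (-1.08 ± 0.18, adjusted p = 5.97e-05) was absent in the second (0.14 ± 0.18, adjusted p = 0.56). Lgr5, the marker of crypt base stem cells, did not pass (adjusted p = 0.14 and 0.0702). Of 16 genes of epithelial repair, 8 rose over the labelled Rag1-/- controls and 9 over the wild type, and none fell. Among all genes 16.1% and 16.9% rose. Ly6a, which encodes Sca-1, was at 1494, 1026 and 1614 CPM against 115, 154 and 328 CPM (2.79 ± 0.48, adjusted p = 8.69e-05), and it is also carried by T cells and vessels. Sprr1a, a cornified envelope protein, was at 23.6, 41.6 and 20.6 CPM against 1.54, 1.18 and 2.84 CPM, and Anxa1 rose by 1.32 ± 0.25 (adjusted p = 0.000263). Clu did not pass (adjusted p = 0.97).

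Of 20 cell-cycle genes only Pcna passed over the labelled Rag1-/- controls (0.66 ± 0.17, adjusted p = 0.0054), and 10 passed over the wild type. Over the Rag2-/- controls 17 rose (median 1.08), beside 17.4% of all genes, so the count depended on the control. Summed, the list had 1148 to 1393 CPM in the labelled Rag1-/- controls and 869.9 to 932 CPM in the Rag2-/- controls. Of the 50-base windows of Pcna 19.1% also occur in the pseudogene Pcna-ps2. This copy was at a mean of 0.630 CPM in TCT and 34.4 CPM in the labelled Rag1-/- controls, and the pair summed to 199 and 159.9 CPM. Mki67, which marks cycling cells, was at 142, 229 and 345 CPM in TCT and 229, 213 and 183 CPM in the labelled Rag1-/- controls. TCT 1 thus lay below and TCT 5 above all of these controls. Of 14 genes of enteroendocrine and tuft cells, 2 rose and 5 fell over the labelled Rag1-/- controls, and 2 rose and 4 fell against the wild type. Among all genes 30.1% and 30.8% passed in these comparisons. Chga, chromogranin A, was at 27.9, 23.9 and 27.8 CPM against 69.8, 56.8 and 62.3 CPM and fell in both comparisons (-1.25 ± 0.25 and -1.14 ± 0.25, adjusted p = 0.000488 and 0.00156). Insl5, a hormone of enteroendocrine cells of the colon, was at 44.6, 39 and 50.1 CPM against 197, 152 and 175 CPM and passed over the labelled Rag1-/- controls only (adjusted p = 0.0138 and 0.247).

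Genes of tissue outside the mucosa were examined because the amount of it in a colon segment can vary. Of 8 genes of fat and pancreas tested, 7 fell over the labelled Rag1-/- controls and 2 over the wild type, beside 14% and 13.8% of all genes. The summed level was 134 to 166 CPM in TCT, 526 to 564 CPM in the labelled Rag1-/- controls and 494 to 578 CPM in the wild type. Adipoq, the adipocyte hormone adiponectin, was at 0, 1.45 and 3.61 CPM in TCT, 16.8, 26.3 and 17.6 CPM in the labelled Rag1-/- controls and 3.96, 1.6 and 4.18 CPM in the wild type, and Prss2, a pancreatic trypsin, had at most 0.567 CPM in any of the 6 libraries. None of 12 smooth muscle genes passed over the labelled Rag1-/- controls, with summed levels of 4530.3 to 5798 and 4877 to 5871 CPM, and 5 fell against the wild type at 7844 to 9518 CPM. The part of fat and muscle in the other differences was not tested.

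The change in TCT was set against that in TRUC mice, whose labelled genotype (Balb/C Tbx21-/- x Rag2-/-) lacks lymphocytes and T-bet. The change in TCT over the labelled Rag1-/- controls differed from the change in TRUC over the Rag2-/- controls in 1717 genes (9.22%), 998 larger in TCT (5.36%) and 719 smaller (3.86%). With the wild type as the control of TCT it differed in 292 genes (1.57%), 192 larger (1.03%) and 100 smaller (0.537%). Leaving out 1 library at a time moved the latter count between 139, without wild-type 1, and 363. Of the T-cell receptor list 17 genes were larger in TCT by the first test and 6 by the second. Lat was at 0.183 to 0.811 CPM in TRUC and 0.443, 0.23 and 0.378 CPM in the Rag2-/- controls, and the difference between the changes was 5.70 ± 0.78 by the first control (adjusted p = 2.46e-05) and 3.64 ± 0.71 by the second (adjusted p = 0.00631). Cxcr6 was at 1.33 to 2.43 CPM in TRUC and its change was larger in TCT by 3.81 ± 0.53 and 4.09 ± 0.53 (adjusted p = 2.88e-05 and 9.34e-05). T-cell genes were thus among the differences by either control. None of the 20 interferon-inducible GTPases passed by either test. Of the 16 genes of the IL-17 and IL-22 axis 1 was smaller in TCT by the first test and none passed by the second. Beside 9.22% and 1.57% of all genes in these tests, such counts do not show that the changes were alike.

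A few myeloid and epithelial genes differed as well. Gpnmb, a glycoprotein of lipid-laden macrophages, was at 96.2, 45 and 33 CPM in TCT and 2.51, 4.72 and 3.1 CPM in its controls, and at 0.801 to 1.99 CPM in TRUC and 4.96, 5.2 and 4.83 CPM in the Rag2-/- controls. It lay above its controls in TCT and below them in TRUC, a difference between the changes of 5.79 ± 0.73 (adjusted p = 7.32e-06) and, with the wild type as control, 4.68 ± 0.71 (adjusted p = 0.000627). Mmp12, the macrophage elastase, was at 51.8, 51 and 20.4 CPM in TCT and 6.94 to 8.77 CPM in TRUC (difference 3.13 ± 0.65 by the wild type, adjusted p = 0.0108). Clca1 was at 77.9 to 414 CPM in TRUC against 3430.2, 4278 and 4502 CPM in the Rag2-/- controls, a steeper fall than in TCT by either control (2.02 ± 0.63 and 2.98 ± 0.64, adjusted p = 0.0441 and 0.0136). Cxcl5, a neutrophil chemokine, was at 108, 80.1 and 179 CPM in TCT and 317 to 719 CPM in TRUC, and its result depended on the control, which for TCT was 0, 0.0737 and 0.258 CPM in the labelled Rag1-/- libraries and 2.74, 3.2 and 3.2 CPM in the wild type. The Rag2-/- controls of TRUC had 2, 1 and 0 counts of it, so the size of either difference is a fitted value that rests on a base near 0. The difference was -2.63 ± 2.92 by the first (adjusted p = 0.632) and -7.34 ± 1.38 by the second (adjusted p = 0.00457). Gpnmb, Mmp12, Rpl26, Gm15772, Rplp0 and Rps18 were chosen after their values were seen.

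The genes in which TCT stood apart from the whole series were few. 16 genes were called over the labelled Rag1-/- controls, were not called in the same direction in TRUC, DSS, DNBS or the IL10 antibody, and had all 3 TCT values above (12) or below (4) those of the other 26 libraries. Without TCT 1 or without TCT 5 there were 47 such genes. Of those with a mean of at least 5 CPM over the 6 libraries, Hs3st3b1, Trerf1, Abca2, Nfatc2, Reps1 and Eif4enif1 were higher, and Rnf39 and Dynlt3 lower. Nfatc2, a transcription factor of activated T cells, was at 30.7, 29.5 and 22.7 CPM against 11.2, 11.3 and 16.1 CPM (1.10 ± 0.27, adjusted p = 0.00275). Hs3st3b1, a heparan sulfate sulfotransferase, was at 14.9, 12.5 and 12.2 CPM against 4.46, 5.08 and 2.41 CPM (1.72 ± 0.34, adjusted p = 0.00046), and Rnf39, a gene of the MHC region, at 16.8, 10.4 and 10.9 CPM against 56.3, 51.4 and 52 CPM (-2.07 ± 0.43, adjusted p = 0.000749). Rag1 itself, with the counts given above, stood above every other library too and did not reach that mean level.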

How the data were processed

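The authors deposited raw read counts per gene for 29 libraries of colon RNA, poly-A selected. The submitters' processing notes name Trimmomatic, HISAT2, HTSeq and the build GRCm38. Their versions, the annotation and the strand setting are not given in the sources used here, so antisense and overlapping genes are uncertain. The labels name the group of each column. The table also held 92 spike-in features, all at a count of 0, which were left out.

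Counts were scaled by TMM and tested with edgeR 4.0.16 in R 4.3.3, in 1 quasi-likelihood fit of all 9 groups with no covariate, so that groups of 3 share 1 estimate of the spread. Genes averaging 3 or more counts per library were kept, 18616 of 54532. P values were adjusted by Benjamini and Hochberg over all of these, with a threshold of 0.05. The SE of a log2 fold change was its size divided by the square root of F. CPM used the TMM-scaled totals. Where a group had no count, a bound on the fold was set from 3 counts per library. Replicates differed by more than counting noise in every pair of TCT and of labelled Rag1-/- libraries, and no column repeated another.

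Positions came from GENCODE M21 on GRCm38 and promoter sequences from RefSeq (GRCm38.p6). The share of a gene's exon windows of 50 bases that also occur in another gene marked near copies. Among genes named above without this share, it was 26.4% for H2-Q7, 24.0% for Klk1, 19.0% for Ly6a and 17.6% for Abcb1a. For Apol10a it was 16.9% and for Oas1a 57.6%. The level of each of these genes alone is uncertain too. The lists and genes were chosen with earlier results of these data known. The text names list members, either the first of a list or the largest changes, and, among genes called without overlap and with a mean of at least 5 CPM over the 6 libraries, the 10 largest rises and falls, the 8 largest among genes in which TCT stood apart, and the 6 largest shared with other models. The wild-type against Rag2-/- comparison, the classes built on it and the 8 largest genes of its classes were added after the values were seen. Members named beyond 6 in a list, and genes outside these rules, were chosen after their values were seen. Some listed genes are counted with their lists but not reported here. Scripts were tested on simulated counts. Alternatives were RLE and upper quartile scaling, other filters, a threshold of 0.01, leaving out each library, fits of 2 groups alone, a replicate block and DESeq2 1.42.0.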

Additional observations from a re-analysis of the deposited data

Results flagged for a closer look

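Each result here is a gene whose change in TCT over the wild type differed from its change in TRUC over the Rag2-/- controls in edgeR's test of the difference itself, with p adjusted over all 18616 genes. The difference over the labelled Rag1-/- controls is given for Cxcl5, Rpl26 and Gm15772. In 15 TRUC groups examined, 1 for each gene, no library stood apart from the other 3.

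Among genes of T cells and their receptors the difference of the log2 fold changes was 4.09 ± 0.53 for Cxcr6 (adjusted p = 9.34e-05) and 3.64 ± 0.71 for Lat (adjusted p = 0.00631). It was 3.45 ± 0.56 for Il18r1, a receptor chain for IL-18, and 3.34 ± 0.71 for Cxcr3 (adjusted p = 0.00123 and 0.0133). Il7r, the IL-7 receptor, gave 3.09 ± 0.60 (adjusted p = 0.00639), with 2.22 to 4.06 CPM in TRUC and 44.3, 23.5 and 15.4 CPM in TCT. Cd4 gave 2.37 ± 0.54 (adjusted p = 0.0244), with 4.12 to 6.14 CPM in TRUC. Itgae, the CD103 integrin of intraepithelial lymphocytes, gave 2.27 ± 0.36 (adjusted p = 0.000847), with 8.55 to 12.2 CPM in TRUC and 34.1, 36 and 15.9 CPM in TCT.

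Among myeloid genes the difference was 4.68 ± 0.71 for Gpnmb (adjusted p = 0.000627) and 3.13 ± 0.65 for Mmp12 (adjusted p = 0.0108). Cxcl5 gave -7.34 ± 1.38 (adjusted p = 0.00457) and, with the labelled Rag1-/- controls, -2.63 ± 2.92 (adjusted p = 0.632), with 2, 1 and 0 counts in the Rag2-/- controls, so neither size is more than a fitted value. Among epithelial genes it was 3.28 ± 0.72 for Lyz1 (adjusted p = 0.0174) and 2.98 ± 0.64 for Clca1 (adjusted p = 0.0136). The level of Lyz1 is uncertain because of the windows shared with Lyz2. Gabrp, a subunit of the GABA-A receptor chosen after its values were seen, gave 7.32 ± 0.93 (adjusted p = 8.04e-05), with 23.8, 3.42 and 15.8 CPM in TCT, 5.19, 6.26 and 6.45 CPM in the labelled Rag1-/- controls and 0.61, 0.866 and 0.738 CPM in the wild type, against 0.534 to 1.62 CPM in TRUC and 6.11, 8.42 and 9.36 CPM in the Rag2-/- controls. Its TRUC libraries all lay below the Rag2-/- controls and its TCT libraries all lay above the wild type. The wild-type libraries also lay far below the Rag2-/- controls, both untreated, and TCT 3 lay below every labelled Rag1-/- control. The size of the Gabrp difference thus rests in part on the untreated groups.

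The near copies Rpl26 and Gm15772 gave -4.88 ± 0.19 and 4.65 ± 0.18 (adjusted p = 6.35e-15 and 6.35e-15) with the wild type as control, and 0.28 ± 0.19 and -0.01 ± 0.17 with the labelled Rag1-/- controls (adjusted p = 0.379 and 0.985). The TRUC libraries lay with TCT and the wild type in both genes, as given above.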

How the results depend on the processing

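With an adjusted p of 0.01, 3513 genes passed between TCT and the labelled Rag1-/- controls (1963 higher), 8 between these and the Rag2-/- controls, 3628 between TCT and Rag2-/-, 3134 between TCT and wild type, 876 between wild type and Rag2-/-, 702 in the difference of the TCT and TRUC changes and 101 in that with the wild type as control. At this threshold 1801 genes were shared with other models, 1710 held and 69 passed in all 3 comparisons. The labelled Rag1-/- and Rag2-/- controls differed in 14 genes with upper quartile scaling, 10 without a filter on low counts, 418 by edgeR on the 2 groups alone and 1008 by DESeq2, and wild type and Rag2-/- in 3713 and 3440 by the latter pair of fits. Without a filter 35 genes stood apart, and without the condition on other models 70. In all 4 other models 422 genes were shared.

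Upper quartile scaling shifted the median of all genes by -0.115 against the wild type (2429 higher, 3385 lower) and by 0.107 in the difference of the TCT and TRUC changes (1227 larger, 525 smaller), and put 821 of the genes in neither further comparison higher and 697 lower, against 681 and 888.

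Leaving out 1 library at a time gave 4087 to 5781 genes for TCT against the labelled Rag1-/- controls, 4377 to 5838 against Rag2-/- and 3796 (without TCT 5) to 5800 against the wild type. It gave 6 to 145 between the labelled Rag1-/- and Rag2-/- controls, with 145 without Rag1-/- control 2, and 964 (without Rag2-/- 2) to 1166 between wild type and Rag2-/-. The difference from the TRUC change passed in 1034 (without Rag2-/- 4) to 1816 genes, and by the wild type in 139 to 363, with 139 and 158 without wild-type 1 and 2, 190 and 161 without Rag2-/- 2 and 4, 175 and 181 without TCT 1 and 3, and 150 without TRUC 4. Shared genes ranged from 2458 to 3744, held ones from 2008 (without TCT 5) to 3479, those also between untreated groups from 538 to 769, and those in all 3 from 100 to 309, with 100, 101 and 111 without wild-type 1, 2 and 4, 121 and 117 without Rag2-/- 1 and 2 and 309 without DSS 8. Those in neither ranged from 980 (without Rag1-/- control 3) to 2182, those that divided all libraries from 401 to 447 and those that stood apart from 14 to 47, with 47 without TCT 1 or TCT 5, 30 without TCT 3 and 26 without DSS 8. The cause of these shifts was not tested.

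Of 197 genes named in the text (the copy Pcna-ps2 was not refitted), 157 passed between TCT and the labelled Rag1-/- controls, and 143 of these kept call and direction with any 1 library of the 2 groups left out. None changed direction. The other 14 lost the call in 1 to 4 of these fits, with a highest adjusted p by edgeR without TCT 5 for Arntl (0.0935), Gbp10 (0.187), Mertk (0.17), Pcna (0.0649) and Slc26a3 (0.119), without TCT 3 for Ciart (0.154) and Insl5 (0.0543), without Rag1-/- control 2 for Cd163 (0.0654), Kit (0.0522) and Tox (0.172), and without Rag1-/- control 3 for Eif4enif1 (0.101), Il33 (0.0789), Osm (0.093) and Reg3b (0.112). Of the 40 that did not pass, 13 changed the sign of the log2 fold change with 1 library left out. The ranges were -0.353 to 0.220 for Il4, -0.302 to 0.150 for Ccl25 (-0.0051 with upper quartile scaling), -0.101 to 0.410 for Tnfsf15, -0.0389 to 0.490 for Mx1, -0.0378 to 0.380 for Oas1a, -1.87 to 1.98 for Pax5 and for Jchain, 0 to 2.44 for Mzb1, -0.478 to 0.256 for Clu, -0.162 to 0.463 for Mki67, -0.0247 to 0.0949 for Myh11, -1.71 to 0.997 for Prss2 and -0.181 to 0.420 for Dbp.

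No paired analysis was possible because TCT and the labelled Rag1-/- controls share only the replicate number 3. Same-numbered samples of other groups share a number only (correlations of -0.107 to 0.0738), and with that number as a replicate block 81 genes passed between the labelled Rag1-/- and Rag2-/- controls and 3344 between wild type and Rag2-/-.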

Other observations

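Of 9 mast cell and eosinophil genes tested, 4 rose and Kit fell over the labelled Rag1-/- controls, and 3 rose and Kit fell against the wild type. Among all genes 30.1% and 30.8% passed in these comparisons. Mcpt1, a chymase of mucosal mast cells, was at 9.52, 1.11 and 4.54 CPM in TCT and 0.811, 0.368 and 0.688 CPM in the labelled Rag1-/- controls. Mcpt1 rose by 3.01 ± 0.59 and 3.47 ± 0.61 against the 2 controls (adjusted p = 0.000418 and 0.000253), and TCT 3 was the lowest TCT library. Cma1, a chymase of connective tissue mast cells, did not pass (adjusted p = 0.788).

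Of 20 genes of matrix and its turnover, 8 rose over the labelled Rag1-/- controls, and 6 rose and Postn fell against the wild type. Among all genes 30.1% and 30.8% passed. Mmp10, a matrix protease, was at 9.78, 44.6 and 20.0 CPM in TCT against 0.73, 0.368 and 0.688 CPM in the labelled Rag1-/- controls, and Mmp3 at 35.7, 9.83 and 38.3 CPM against 1.05, 2.58 and 2.07 CPM. Il1rl1, the receptor for IL-33, was at 9.08, 77 and 30.2 CPM against 1.3, 1.03 and 1.03 CPM (5.10 ± 0.73 and 4.88 ± 0.71, adjusted p = 9.82e-06 and 3.31e-05), and all its TCT values lay above both controls. Osmr, the receptor for oncostatin M, was at 40.6, 37.6 and 50.9 CPM against 8.67, 12.3 and 12.7 CPM (adjusted p = 6.03e-05), and Osm itself at 2.18, 1.54 and 3.24 CPM against 0.243, 0.147 and 0.344 CPM (adjusted p = 0.0267). The fibrillar collagens Col1a1 and Col3a1 did not pass in either comparison (adjusted p = 0.28 and 0.657 over the labelled Rag1-/- controls).

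Of 15 genes of the circadian clock, Ciart rose and Arntl fell over the labelled Rag1-/- controls, and 4 fell against the wild type. Among all genes 30.1% and 30.8% passed. The change in TCT was larger than that in TRUC in 7 and smaller in 3 by the labelled Rag1-/- controls, and larger in 6 and smaller in 2 by the wild type. In these tests of the difference 9.22% and 1.57% of all genes passed. Between the untreated wild-type and Rag2-/- controls Arntl gave 1.69 ± 0.19 and Dbp -3.52 ± 0.49 (adjusted p = 5.5e-07 and 1.73e-05). The hour of sampling is not in the labels, and its part in the differences was not tested.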
